A study of Gallus gallus with 12 samples.

Results

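The genes described here are 46 chicken genes for the spindle, the kinetochore and the condensation and separation of chromosomes, taken from the gene tables by requiring the symbol column to equal a symbol of a fixed list. All 46 were found, each at 1 gene, among the 18332 genes of the tables. Genes of DNA replication were not members. By role they comprised 5 checkpoint kinases and Mad/Bub proteins, 8 mitotic kinases, cyclins and Cdc20, 7 centromere proteins, the 4 subunits of the Ndc80 complex, 11 kinesins and spindle assembly factors, 5 passenger and cytokinesis proteins, and 6 condensin subunits and separase.

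RNA was sequenced from the abdominal fat and the liver of normal Xinghua chickens, which the labels call broilers and the study's methods describe as purebred females. The labels give the age as 8 weeks, which the methods give as the age when feeding began. HN chickens received a high-fat diet (HFD) and NN chickens the normal diet. Each of the 4 groups (HN fat, NN fat, HN liver, NN liver) held 3 libraries, 12 in all, and no other treatment or allele was named for them. The unit was FPKM, fragments per kilobase of transcript, scaled to the mapped fragments of the library, so levels of different genes can be set side by side per length of transcript.

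Mitosis is run by CDK1 bound to a B-type cyclin, with the Polo and Aurora kinases beside it. Kinetochores are built on centromeric chromatin that carries the histone variant CENPA, the Ndc80 complex at their outer face holds the microtubules, and the Mad and Bub proteins delay anaphase until the chromosomes are attached. Most of these transcripts accumulate only in cycling cells near the end of the cell cycle, and mature hepatocytes and adipocytes rarely divide. In bulk tissue, more cycling cells and more mitotic RNA per cell cannot be told apart.

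The tissues matched their labels. Summed over 10 hepatocyte markers, fats had 3526 to 10592 FPKM, mostly from APOA1, and livers 85686 to 103128 FPKM. Summed over 8 adipocyte markers, fats had 14347 to 19610 FPKM and livers 223 to 438. Relative sequencing depth, read from the steps of low values, lay between 0.978 and 1.02 in the 12 libraries, where 1 is their median. It rests on 21 to 73 genes per library. Only values close to the lowest step of a gene were used, so a large difference in depth could have gone unseen. Between 12104 and 12412 genes reached 1 FPKM in fats and between 10735 and 11272 in livers.

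The members were low in both tissues. Only BUB3, a checkpoint protein that also belongs to complexes outside mitosis, averaged 10 FPKM or more over the 12 libraries (27.5 FPKM), and 14 members averaged under 1 FPKM. The next highest means were 7.49 FPKM for SPC24, 7.15 for CDK1 and 5.86 for BIRC5. At the low end, KIF20B did not exceed 0.10 FPKM in any library and was listed at 0 in HN fat replicate 2, and CENPK, a protein of the inner kinetochore, was listed at 0 in NN liver replicate 2. In group means, 40 members reached 1 FPKM in HN fat, 27 in NN fat, 26 in HN liver and 16 in NN liver. Summed over the 45 members without BUB3, the 3 HN fats had 201.9, 148.1 and 95.9 FPKM, and the 3 NN fats 64.4, 95.3 and 93.2 FPKM. The same sum was 39.5, 60.6 and 209.3 FPKM in the HN livers and 48.3, 41.2 and 61.3 FPKM in the NN livers. Without BUB3 the HN sums thus lay above all NN sums in fat, by a small margin for replicate 3. With BUB3 included this did not hold, since HN fat replicate 3 summed to 128.6 FPKM and NN fat replicate 3 to 133.6 FPKM. In liver 1 HN bird stood far above and another below every NN bird.

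**Figure D1:**
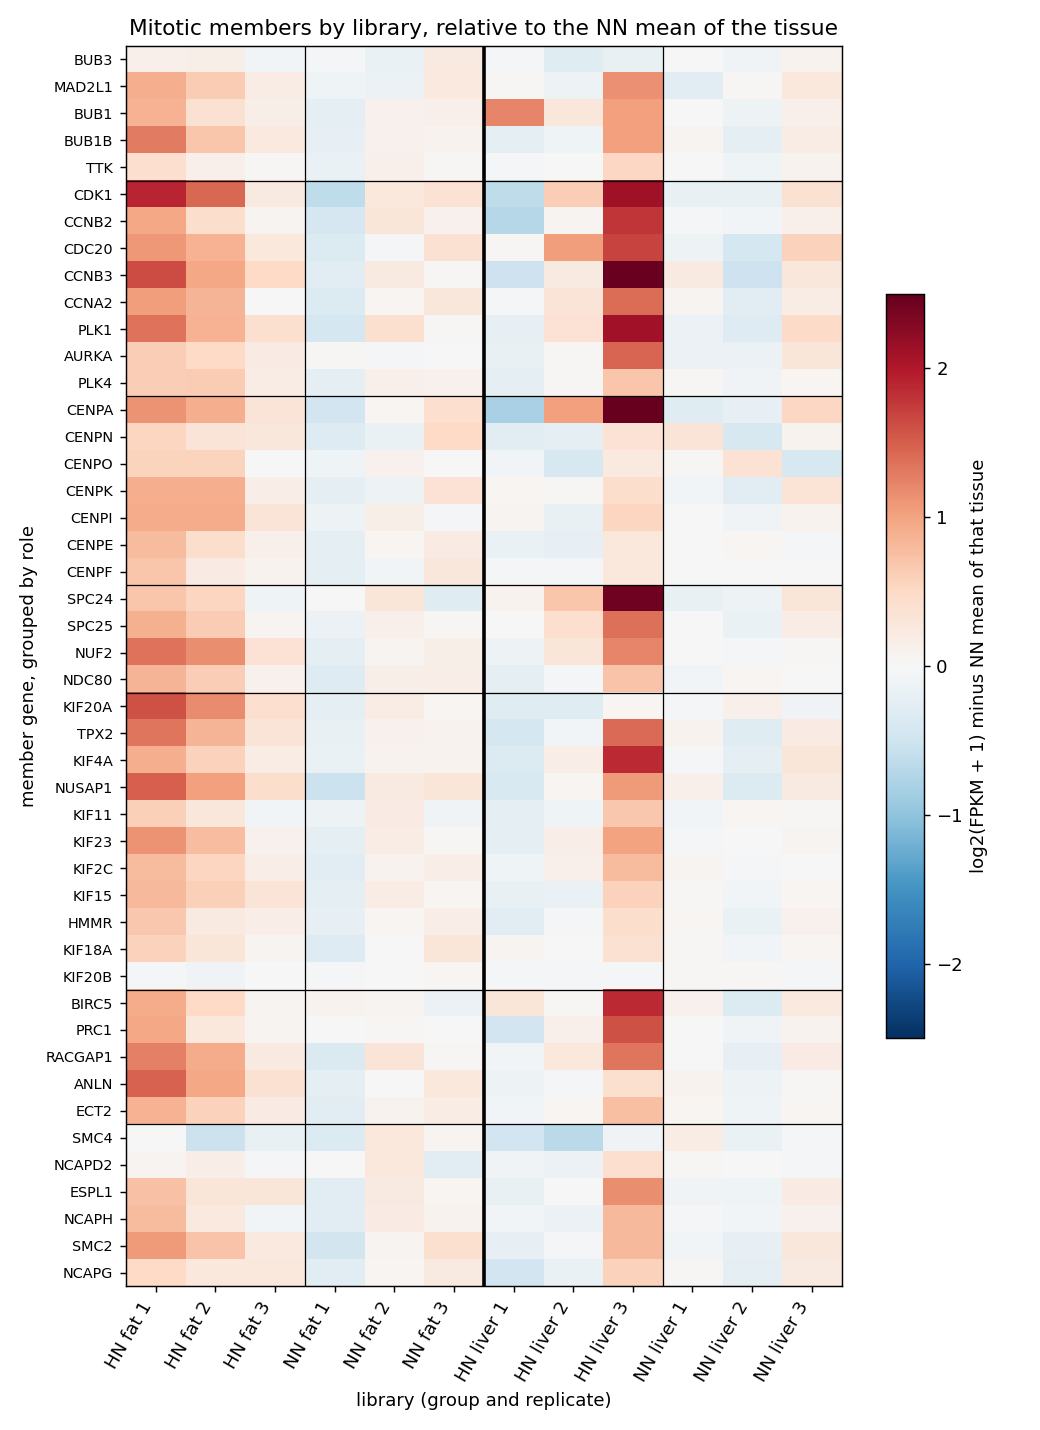
Level of the 46 members (rows, grouped by role) in the 12 libraries (columns), as log2(FPKM + 1) minus the mean of the NN birds of the same tissue; red is above that mean and blue below it. HN fat replicates 1 and 2 are red in nearly all rows, HN fat replicate 3 is pale, and in liver only HN liver replicate 3 is red throughout most rows.

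The HN and NN fats were compared to ask whether the diet goes with a different level of mitotic transcripts in adipose tissue. The mean of the HN fats was above that of the NN fats in 44 of the 46 members, against 41.1% of all genes, and was at least 2 times as high in 22 members, against 7.68% of all genes. In 19 members every HN bird lay above every NN bird, an arrangement found in 3.48% of the 17634 genes detected in fat, and no member had the opposite arrangement. HN fat replicate 1 was above all NN fats in 42 members, replicate 2 in 39 and replicate 3 in 19, so that replicate 3 set the count. The shares of all genes for these single birds were not counted. No member passed the test. With limma on log2(FPKM + 1) and Benjamini-Hochberg adjustment, 35 members had the mean of at least 1 FPKM needed for testing, 34 of them had a positive fold change, and 0 were called at an adjusted p under 0.05 (smallest adjusted p = 0.799, against 0.00807% of all tested genes called). At an unadjusted p under 0.05 there were 14 members, all higher in HN, where 2.39% of all tested genes were higher in HN at that level. Without the filter on low values these were 21 of 46 members, against 2.38% of all genes. The filter averaged both groups, so members low in NN fats could pass through the HN fats alone. The median log2 fold change was 0.56 over the 35 tested members and -0.07 over all tested genes. Without the filter it was 0.51 over the 46 members and -0.03 over all genes. These p-values measure only the spread between the birds sequenced.

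A pair of libraries carried much of the difference in fat. HN fat replicate 1 was the highest of the 6 fats in 41 members (17.0% of all genes) and NN fat replicate 1 the lowest in 38 (13.5% of all genes). Without HN fat replicate 1 the HN mean was still the higher in 44 members, but it was at least 2 times as high in 10 (6.96% of all genes), and 3 of 32 tested members were higher at an unadjusted p under 0.05 (1.33% of all tested genes). Without NN fat replicate 1 these counts were 11 (8.24% of all genes) and 3 of 37 (1.35%). Without HN fat replicate 3, in contrast, every HN bird was above every NN bird in 39 members, an arrangement then found in 10.2% of all genes, and 26 of 36 tested members were higher at an unadjusted p under 0.05, against 5.31% of all tested genes. That last count was 5 of 35 without HN fat replicate 2 (1.60% of all tested genes), 9 of 36 without NN fat replicate 2 (1.29%), and 5 of 32 when all 12 libraries were fitted together (2.41%).

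Among the kinases and cyclins, CDK1, the kinase that drives entry into mitosis, was the highest member in HN fat after BUB3. Its level was 20.0, 14.1 and 5.54 FPKM in the 3 HN fats and 2.61, 5.68 and 6.18 FPKM in the 3 NN fats. The first 2 HN birds were far above all NN birds and the third lay within their range. The log2 fold change was 1.19 with a standard error of 0.45 (limma, unadjusted p = 0.0318, Benjamini-Hochberg adjusted p = 0.799). CCNB3, a B-type cyclin, had 7.90, 4.60 and 3.03 FPKM in the HN fats and 1.40, 2.34 and 1.94 FPKM in the NN fats, without overlap (log2 fold change 1.03 ± 0.30, SE). PLK1, the Polo-like kinase of spindle assembly and cytokinesis, had 4.54, 2.95 and 1.83 FPKM in HN fats and 0.59, 1.84 and 1.20 FPKM in NN fats. For PLK1 the lowest HN bird was just below the highest NN bird (log2 fold change 0.88 ± 0.32, SE). All 8 members of this role had a positive fold change in fat, with a median of 0.68, and 4 had an unadjusted p under 0.05, the fourth being CDC20, the activator of the anaphase-promoting complex. AURKA, a spindle pole kinase, and PLK4, the kinase of centriole duplication, did not overlap either, at 1.29 to 2.04 and 1.16 to 1.97 FPKM in HN fats against 0.95 to 1.02 and 0.62 to 1.09 FPKM in NN fats. CCNB2 had 4.74 to 9.65 FPKM in HN fats and 3.10 to 5.74 FPKM in NN fats, and CCNA2, the cyclin of S phase and early mitosis, 2.25 to 5.78 and 1.61 to 3.02 FPKM, both with overlap.

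In the outer kinetochore, NUF2, a subunit of the Ndc80 complex, showed the clearest difference. It had 4.04, 3.39 and 1.53 FPKM in the HN fats and 0.69, 1.06 and 1.18 FPKM in the NN fats. The groups did not overlap, and the log2 fold change was 0.96 ± 0.29 (SE, limma, unadjusted p = 0.0120). The NN mean of NUF2, 0.98 FPKM, was under 1 FPKM, so it passed the filter through the HN birds. The other subunits of the same complex were less separated. SPC24 had 9.93, 8.79 and 5.29 FPKM in HN fats and 5.77, 7.31 and 4.49 FPKM in NN fats, and SPC25 had 5.94, 4.84 and 2.97 FPKM in HN fats and 2.38, 3.12 and 2.83 FPKM in NN fats. In both, replicate 3 of the HN fats lay within the NN range. NDC80 itself, with 0.71 to 1.87 FPKM in HN fats and 0.28 to 0.79 FPKM in NN fats, was below the filter.

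Of the centromere proteins, CENPA had 5.68, 4.73 and 2.79 FPKM in the HN fats and 1.20, 2.16 and 3.07 FPKM in the NN fats. Only the third HN bird overlapped the NN birds (log2 fold change 0.79 ± 0.30, SE). CENPN, which reads CENPA nucleosomes, had 3.48, 2.89 and 2.75 FPKM in HN fats and 1.47, 1.74 and 3.37 FPKM in NN fats, where NN replicate 3 lay within the HN range. CENPI was the only one of the 7 without overlap, at 1.60, 1.59 and 0.69 FPKM in HN fats and 0.25, 0.50 and 0.34 FPKM in NN fats. CENPI, CENPE, CENPF and CENPO were below the filter in fat, and their HN means were 2.11 to 3.56 times the NN means.

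KIF20A, a kinesin of the central spindle that acts in cytokinesis, had the largest ratio of means among the tested members after ANLN. It had 5.76, 4.04 and 1.99 FPKM in the HN fats and 0.90, 1.53 and 1.31 FPKM in the NN fats. The groups did not overlap, and the log2 fold change was 1.07 ± 0.31 (SE, limma, unadjusted p = 0.0103, Benjamini-Hochberg adjusted p = 0.799). TPX2, which targets Aurora A to the spindle, had 6.39, 4.25 and 2.65 FPKM in HN fats and 1.57, 2.14 and 2.12 FPKM in NN fats. NUSAP1, a microtubule-bundling protein, had 4.92, 3.29 and 1.86 FPKM in HN fats and 0.46, 1.46 and 1.62 FPKM in NN fats. Neither overlapped, with log2 fold changes of 0.83 ± 0.27 for TPX2 and 0.98 ± 0.34 for NUSAP1 (SE). Of the 11 kinesins and spindle factors, 10 had a positive fold change without the filter. The exception was KIF20B, at 0.05 FPKM or less in HN fats and 0.10 or less in NN fats, values too low to order.

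The cytokinesis proteins followed the same arrangement of birds. ANLN, the anillin scaffold of the cleavage furrow, had 4.10, 2.57 and 1.39 FPKM in HN fats and 0.54, 0.81 and 1.19 FPKM in NN fats, without overlap (log2 fold change 0.94 ± 0.31, SE). With an NN mean of 0.85 FPKM, ANLN passed the filter through the HN birds. RACGAP1, of the centralspindlin complex, had 4.18, 3.11 and 1.55 FPKM in HN fats and 0.69, 1.72 and 1.23 FPKM in NN fats, with 1 NN bird inside the HN range (log2 fold change 0.80 ± 0.31, SE). PRC1, which bundles the midzone, had 9.72, 5.61 and 4.73 FPKM in HN fats and 4.41, 4.58 and 4.43 FPKM in NN fats. The groups of PRC1 did not overlap although the lowest HN bird exceeded the highest NN bird only slightly. BIRC5, the survivin subunit of the chromosomal passenger complex, had 10.8, 7.75 and 5.51 FPKM in HN fats and 5.57, 5.51 and 4.57 FPKM in NN fats, and overlapped.

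**Figure D2:**
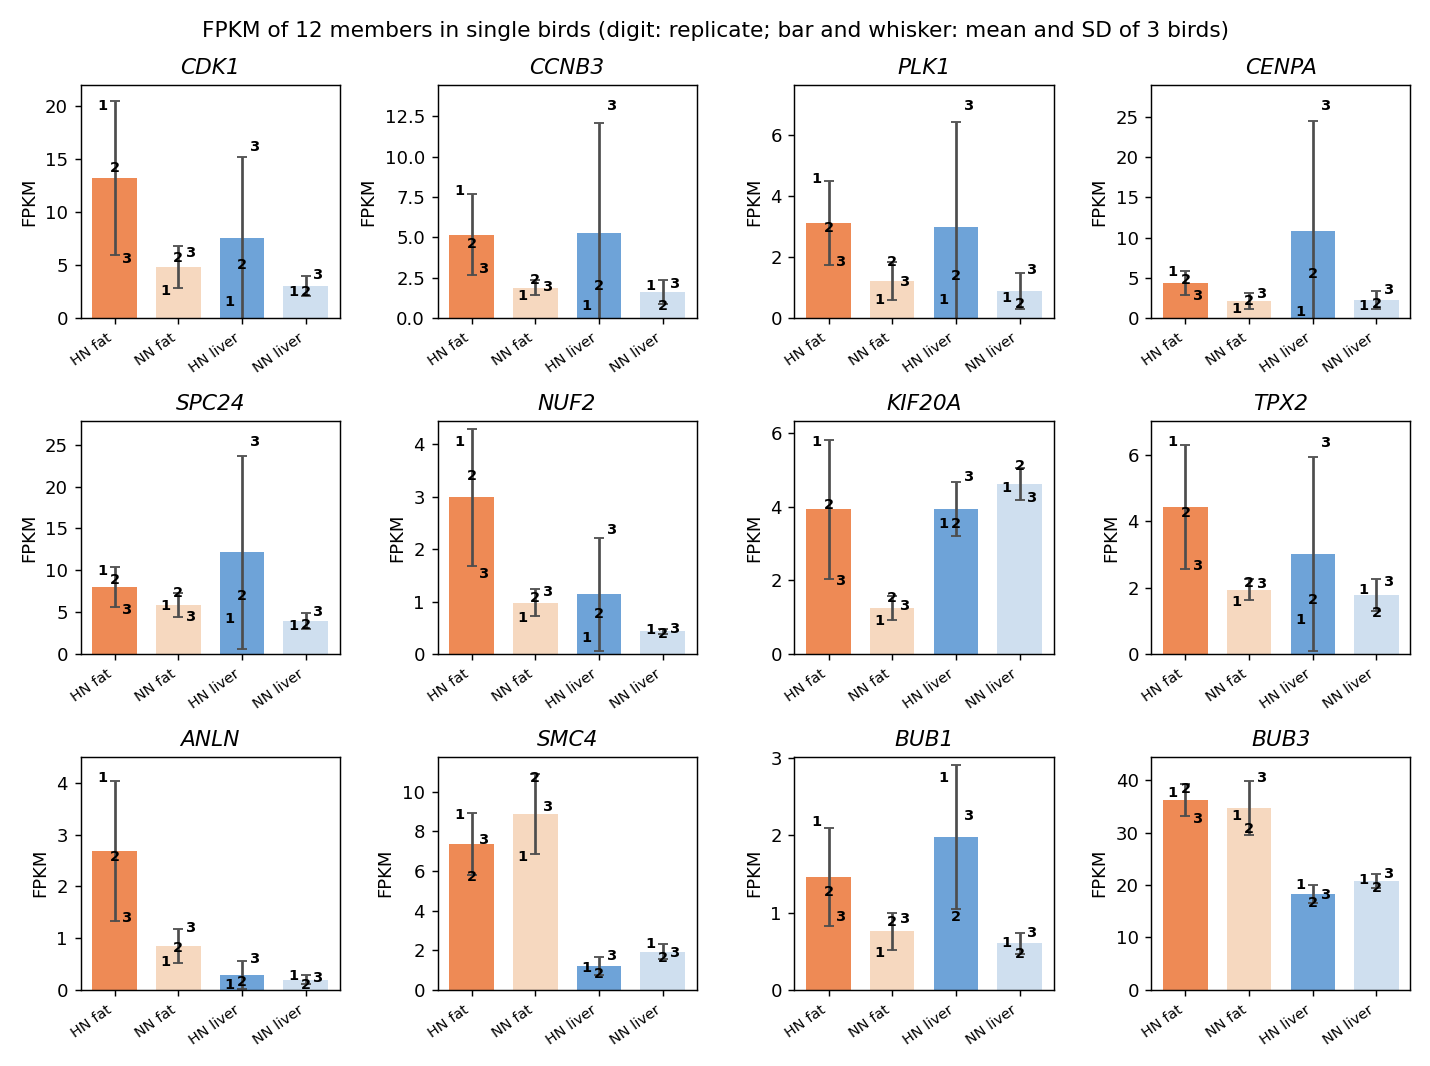
FPKM of 12 members in single birds; each digit is the replicate number of a bird, bars are means and whiskers the SD of 3 birds, cut at 0, with the groups in the order HN fat, NN fat, HN liver and NN liver. In fat the HN birds spread widely upward in most panels. In liver HN replicate 3 alone is high for most panels, and BUB1, BUB3, SMC4 and KIF20A depart from that liver pattern.

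Not all members shared the difference in fat. BUB3 had 37.5, 38.3 and 32.7 FPKM in the HN fats and 33.2, 30.6 and 40.4 FPKM in the NN fats (log2 fold change 0.06 ± 0.14, SE). SMC4, an ATPase core subunit of both condensins, had 8.81, 5.71 and 7.59 FPKM in HN fats and 6.73, 10.7 and 9.24 FPKM in NN fats, and was the only tested member with a negative fold change, -0.24 ± 0.21 (SE). NCAPD2, a regulatory subunit of condensin I, had 3.50, 3.80 and 3.16 FPKM in HN fats and 3.27, 4.16 and 2.55 FPKM in NN fats. In these 3 genes the groups overlapped widely. SMC2, the partner of SMC4, had 3.74, 2.73 and 1.69 FPKM in HN fats and 0.65, 1.39 and 2.00 FPKM in NN fats, so the pair of condensin ATPases had fold changes of opposite sign, 0.67 ± 0.30 for SMC2 (SE), with overlap in both. The condensin and separase group had the lowest median log2 fold change of the roles in fat (0.33), and none of its 6 members had an unadjusted p under 0.05. Of the checkpoint group, BUB1B had 3.16, 1.75 and 1.02 FPKM in HN fats and 0.47, 0.84 and 0.81 FPKM in NN fats, without overlap, and MAD2L1, the Mad2 protein, had 9.76, 7.86 and 5.46 FPKM in HN fats and 4.27, 4.18 and 5.79 FPKM in NN fats, with overlap.

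The members not yet given lay in the same arrangement at lower levels. Without overlap in fat were KIF4A, at 1.50 to 3.11 FPKM in HN fats and 0.95 to 1.33 FPKM in NN fats, KIF2C, a microtubule depolymerase, at 0.63 to 1.50 and 0.21 to 0.62 FPKM, and KIF15, a spindle motor, at 0.87 to 1.61 and 0.26 to 0.71 FPKM. The same held for ECT2, the exchange factor that activates RhoA at the furrow, at 0.63 to 1.60 FPKM in HN fats and 0.17 to 0.60 FPKM in NN fats, and for HMMR, a spindle-associated hyaluronan receptor, at 0.68 to 1.38 and 0.29 to 0.67 FPKM. ESPL1, the separase that cleaves cohesin, had 2.22 to 3.36 FPKM in HN fats and 1.19 to 2.06 FPKM in NN fats, and NCAPG, of condensin I, 1.63 to 2.07 and 0.81 to 1.55 FPKM. These margins were narrow, since the lowest HN bird and the highest NN bird were close in each of these 7 genes. The groups overlapped for TTK, the Mps1 checkpoint kinase, at 0.90 to 1.51 FPKM in HN fats and 0.67 to 1.05 FPKM in NN fats, for KIF11, the motor that pushes spindle poles apart, at 1.74 to 3.33 and 1.62 to 2.30 FPKM, and for KIF23, the motor of centralspindlin, at 1.48 to 4.06 and 0.99 to 1.63 FPKM. They also overlapped for KIF18A, which limits the length of spindle microtubules, at 0.45 to 1.06 FPKM in HN fats and 0.11 to 0.71 FPKM in NN fats, for CENPK at 1.02 to 2.38 and 0.52 to 1.32 FPKM, and for NCAPH, the kleisin of condensin I, at 1.61 to 3.74 and 1.25 to 2.15 FPKM. In liver all 13 were highest in HN replicate 3, at levels between 0.43 FPKM for KIF18A and 5.47 FPKM for KIF4A.

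Markers of other cells were read in the same fats. The sum of 10 preadipocyte and fibroblast markers was 8556, 10266 and 5087 FPKM in the HN fats and 4905, 4619 and 4728 FPKM in the NN fats, higher in every HN bird. This sum was mostly COL1A1, COL1A2 and COL3A1, collagen genes with log2 fold changes of 1.07, 1.04 and 0.68. Over the 10 markers the median log2 fold change was 0.03, with 5 positive, and DPT, PDGFRA and PDGFRB were negative. The sum was highest in HN fat replicate 2. The median over the 10 markers was highest in HN fat replicate 1, at 479 FPKM against 318 FPKM in HN fat replicate 2. The sum of 10 hepatocyte markers was lower in every HN fat, at 5261, 3526 and 7847 FPKM against 10592, 9141 and 8608 FPKM in NN fats. Erythroid markers summed to 1953, 385.2 and 603.2 FPKM in HN fats and 1322, 563.8 and 757.5 FPKM in NN fats, highest in replicate 1 of both groups. Macrophage markers summed to 266.6 to 508.1 FPKM in HN fats and 220.5 to 500.2 FPKM in NN fats. The part of these cells in the members' difference was not tested.

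In liver the same comparison was carried by a single bird. The HN mean was above the NN mean in 39 of the 46 members (42.6% of all genes) and at least 2 times as high in 17 (8.32% of all genes). HN liver replicate 3 was the highest of the 6 livers in 40 members, against 22.4% of all genes, and HN liver replicate 1 the lowest in 20, against 17.3%. Without HN liver replicate 3 the HN mean was above the NN mean in 14 members (36.6% of all genes) and at least 2 times as high in 1 (7.51%). It was at least 2 times as high in 30 members without HN liver replicate 1 (9.44% of all genes), in 28 without HN liver replicate 2 (6.87%) and in 11 without NN liver replicate 2 (10.6%). Every HN liver was above every NN liver in 1 member, against 4.63% of the 17290 genes detected in liver, and this count was 12 without HN liver replicate 1 (1893 of 17179 genes), 3 without HN liver replicate 2 (9.48% of all genes) and 5 without NN liver replicate 3 (8.04%).

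With limma, 23 members were tested in liver, 19 had a positive fold change, and 0 were called after Benjamini-Hochberg adjustment (smallest adjusted p = 0.398, with 0% of all tested genes called). At an unadjusted p under 0.05 there was 1 member, higher in HN, with 3.42% of all tested genes higher in HN at that level. Without the filter it was again 1, of 46, against 2.89% of all genes. The median log2 fold change was 0.43 over the 23 tested members and -0.06 over all tested genes. The filter averaged both groups, so members low in NN livers could pass through the HN livers alone. Without the filter the median was 0.24 over the 46 members, 38 of them positive, and -0.03 over all genes, 42.1% of them positive. With the filter it was -0.12 over the 17 members tested when HN liver replicate 3 was left out.

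CENPA showed the widest spread in liver. It had 0.81, 5.46 and 26.3 FPKM in the 3 HN livers and 1.55, 1.72 and 3.53 FPKM in the 3 NN livers. The HN birds held both the lowest and the highest value, and the log2 fold change of 1.11 had a standard error of 0.90 (limma, unadjusted p = 0.257). The level in HN liver replicate 3 was 15.3 times the median of the other 5 livers. PLK1 in the same liver was 10.3 times that median, at 6.93 FPKM against 0.61 and 1.37 FPKM in the other HN livers and 0.67, 0.47 and 1.57 FPKM in the NN livers. KIF4A, a chromokinesin, was 7.60 times the median and AURKA 6.75 times. CDK1 had 1.53, 4.99 and 16.2 FPKM in HN livers and 2.46, 2.44 and 4.09 FPKM in NN livers, and CCNB3 0.79, 2.00 and 13.1 FPKM in HN livers and 2.00, 0.79 and 2.13 FPKM in NN livers.

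SPC24 and CDC20 were among the members that were high in another HN liver as well. SPC24 had 4.21, 6.93 and 25.3 FPKM in the HN livers and 3.30, 3.49 and 5.06 FPKM in the NN livers. CDC20 had 2.19, 5.50 and 9.10 FPKM in the HN livers and 1.87, 1.31 and 3.64 FPKM in the NN livers. In both genes HN replicates 2 and 3 exceeded every NN liver and replicate 1 lay within the NN range. The log2 fold changes were 1.07 ± 0.56 for SPC24 and 0.92 ± 0.45 for CDC20 (SE), with a range of 0.39 to 1.56 for SPC24 and 0.54 to 1.37 for CDC20 when each liver was left out in turn. Over all members, HN liver replicate 2 was the highest of the 6 livers in 0 (15.0% of all genes) and the lowest in 7 (29.0%). Replicate 3 was the highest in 40 (22.4%) and replicate 1 the lowest in 20 (17.3%).

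BUB1 was the only 1 of the 46 members whose HN and NN livers did not overlap, with every HN bird higher. That arrangement was found in 4.63% of all genes, so it is not read as particular to the members. In the RefSeq gene table of the GRCg7b assembly BUB1 overlaps a long non-coding RNA gene, whose part in its values was not tested. BUB1, the kinase that recruits checkpoint proteins to the kinetochore, had 2.74, 0.94 and 2.25 FPKM in HN livers and 0.60, 0.47 and 0.74 FPKM in NN livers. It was highest in HN liver replicate 1, the library that was lowest for 20 other members, and its HN mean remained 3.05 times the NN mean without replicate 3. The log2 fold change was 0.84 ± 0.27 (SE, limma, unadjusted p = 0.0181, Benjamini-Hochberg adjusted p = 0.398), and 0.65 to 1.12 with each liver left out. With an NN mean of 0.60 FPKM, BUB1 passed the filter in liver through the HN birds. In fat BUB1 had 2.17, 1.27 and 0.94 FPKM in HN birds and 0.48, 0.88 and 0.91 FPKM in NN birds, also without overlap. Its relative BUB1B, the BubR1 protein, had 0.28, 0.40 and 2.06 FPKM in HN livers and 0.57, 0.26 and 0.70 FPKM in NN livers, and so followed HN liver replicate 3 like most members.

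**Figure D3:**
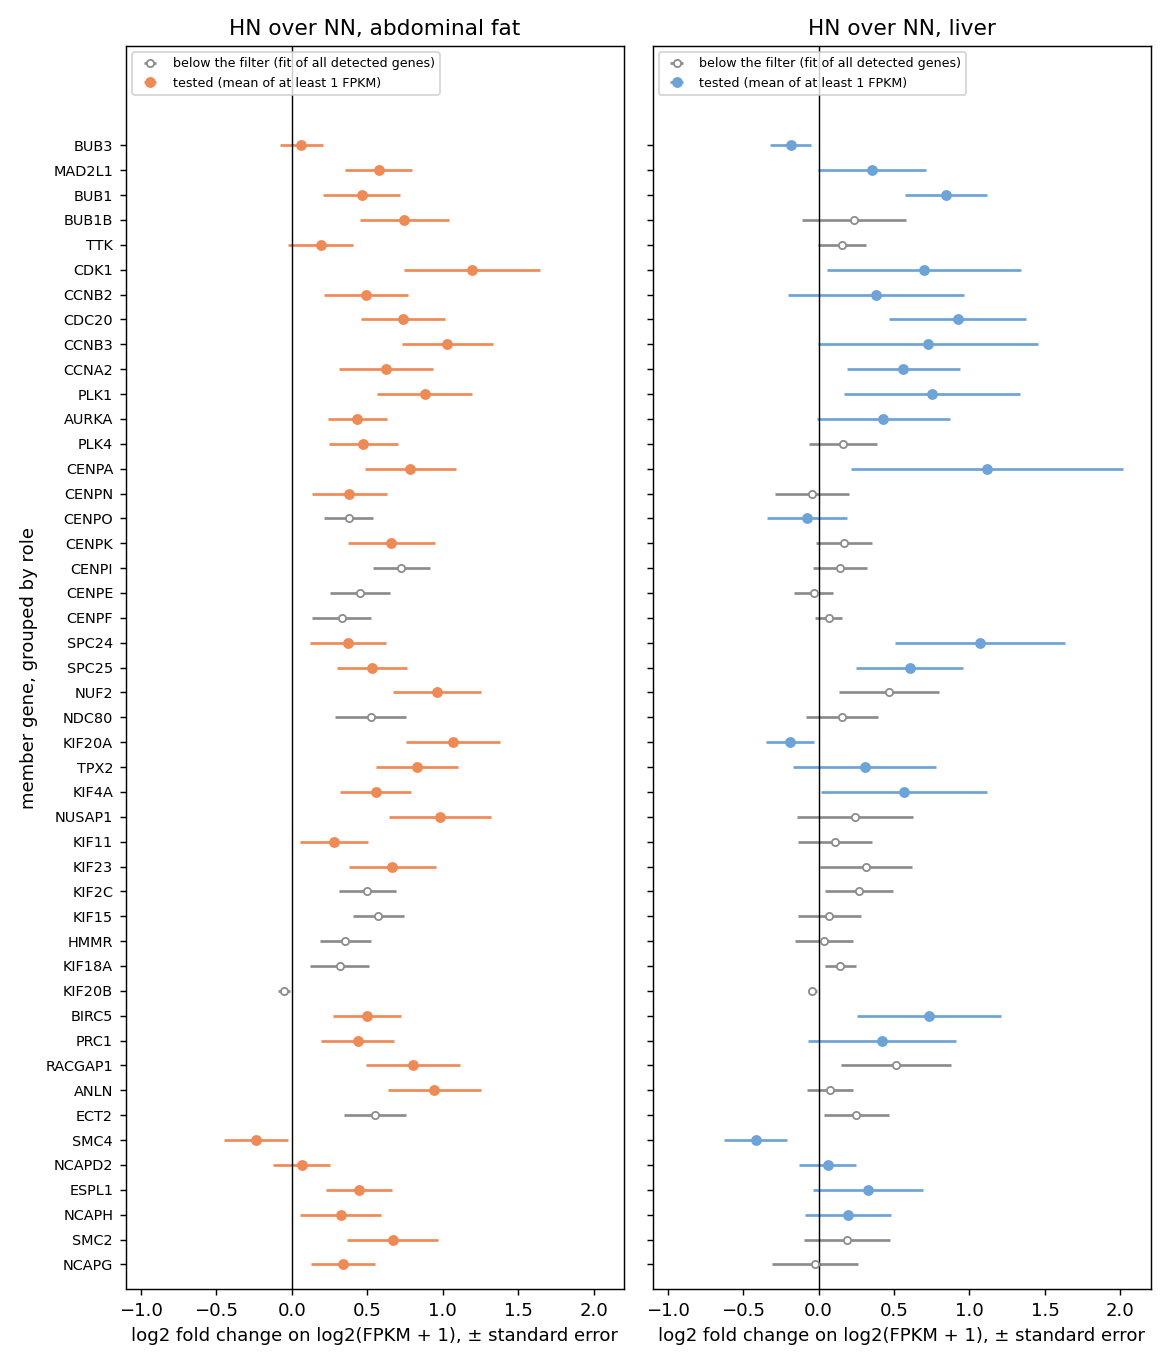
Log2 fold change of HN over NN on log2(FPKM + 1) with its standard error for each member, in fat (left) and liver (right), grouped by role; open grey symbols are members below the mean of 1 FPKM, from the fit without that filter. In fat 44 of 46 values are positive with moderate errors, and in liver the largest value, 1.11 for CENPA, has a standard error of 0.90.

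The other members that were not highest in HN liver replicate 3 were BUB3, SMC4, CENPO, KIF20A and KIF20B. BUB3 had 20.1, 16.6 and 18.1 FPKM in HN livers and 20.9, 19.4 and 22.1 FPKM in NN livers. SMC4 had 1.10, 0.82 and 1.73 FPKM in HN livers and 2.34, 1.60 and 1.86 FPKM in NN livers, with overlap (log2 fold change -0.42 ± 0.21, SE, limma, unadjusted p = 0.0880). SMC4 thus had the lower HN mean in both tissues. CENPO, of the inner kinetochore, had 1.14, 0.70 and 1.68 FPKM in HN livers and 1.30, 1.90 and 0.72 FPKM in NN livers. KIF20A had 3.52, 3.52 and 4.80 FPKM in HN livers and 4.51, 5.10 and 4.25 FPKM in NN livers, a narrow range in which the bird with high CENPA, PLK1 and CDK1 was not set apart.

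Some members lie over another gene. In the RefSeq gene table of the GRCg7b assembly, 45 of the 46 members were matched by gene identifier. There 16 members overlap another gene of any kind, and 10 of these a protein-coding gene. NUF2, KIF18A and HMMR, like BUB1, overlap a long non-coding RNA gene. Whether the libraries kept strand is not stated in the sources used here, so reads of overlapping genes cannot be told apart. KIF20A overlaps SFXN1, a mitochondrial serine transporter, which had 7.85 to 12.2 FPKM in HN fats and 7.43 to 13.3 FPKM in NN fats, but 145.3, 182.6 and 113.5 FPKM in HN livers and 225.0, 287.6 and 155.6 FPKM in NN livers. The KIF20A values in liver thus stand beside those of a neighbour far more abundant than in fat. CDC20 overlaps ELOVL1, a fatty acid elongase, with 238.7, 287.3 and 265.1 FPKM in HN livers and 145.8, 113.7 and 219.8 FPKM in NN livers, where ELOVL1 was higher in every HN bird. In fat ELOVL1 had 107.8, 117.88 and 97.18 FPKM in HN birds and 84.24, 81.75 and 90.65 FPKM in NN birds, again higher in every HN bird. SMC4 overlaps TRIM59, with 3.31 to 5.76 FPKM in HN livers and 4.51 to 5.40 FPKM in NN livers, and CENPO overlaps ADCY3, with 0.79 to 3.98 and 1.03 to 4.34 FPKM. TRIM59 was more abundant in fat, at 9.97 to 16.28 FPKM in HN fats and 14.07 to 15.79 FPKM in NN fats. SMC2 overlaps PTGR1, which averaged 121.4 FPKM in HN fat, 113.0 in NN fat, 93.6 in HN liver and 100.9 in NN liver, far above SMC2. AURKA overlaps CSTF1, PLK4 overlaps MFSD8, CCNB2 overlaps MPHOSPH10, PRC1 overlaps RCCD1 and KIF2C overlaps C1orf228. The part of these neighbours in the members' values was not tested. In the same RefSeq table the genes deposited as AURKA, CCNB2, KIF4A and KIF20B carry other symbols (AURKB, CCNB1, KIF4B and a locus number), so their paralogue names are uncertain.

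Set beside each other, the library ratios in the 2 tissues shared several exceptions. HN liver replicate 3 and HN fat replicate 1 were picked as the libraries highest for most members. High ratios of the members there follow in part from that choice, in which the other genes had no part. The level in HN liver replicate 3 over the median of the other 5 livers had a median of 3.90 over the members, between 0.50 and 15.3. For all genes the median of this ratio was 1.02. This ratio was at least 2 in 40 members, against 1313 of the 15740 genes that had a ratio. The level in HN fat replicate 1 over the median of the other 5 fats had a median of 2.30, between 0.40 and 3.76, with a median of 0.98 over all genes. That ratio was at least 2 in 31 members, against 1060 of the 16277 genes that had a ratio. By role, the ratio in HN liver replicate 3 had medians of 5.52 for kinases and cyclins, 5.12 for the Ndc80 complex, 4.13 for cytokinesis proteins, 3.58 for kinesins, 3.31 for condensin and separase, 3.04 for checkpoint proteins and 2.93 for centromere proteins. In HN fat replicate 1 the same medians were 2.22, 2.20, 2.67, 2.36, 1.48, 1.79 and 2.59. BUB3, SMC4, NCAPD2 and KIF20B had ratios under 1.6 in both libraries, while KIF20A was 3.76 in the fat and 1.13 in the liver. These libraries carry different replicate numbers, although their deviations from the group means over all tested genes correlated at 0.192. The same-numbered HN fat and liver pairs correlated at 0.227, 0.398 and 0.121. HN fat replicate 3 was the lowest HN fat for most members, and HN liver replicate 1 was the lowest of the 6 livers in 20 (17.3% of all genes).

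**Figure D4:**
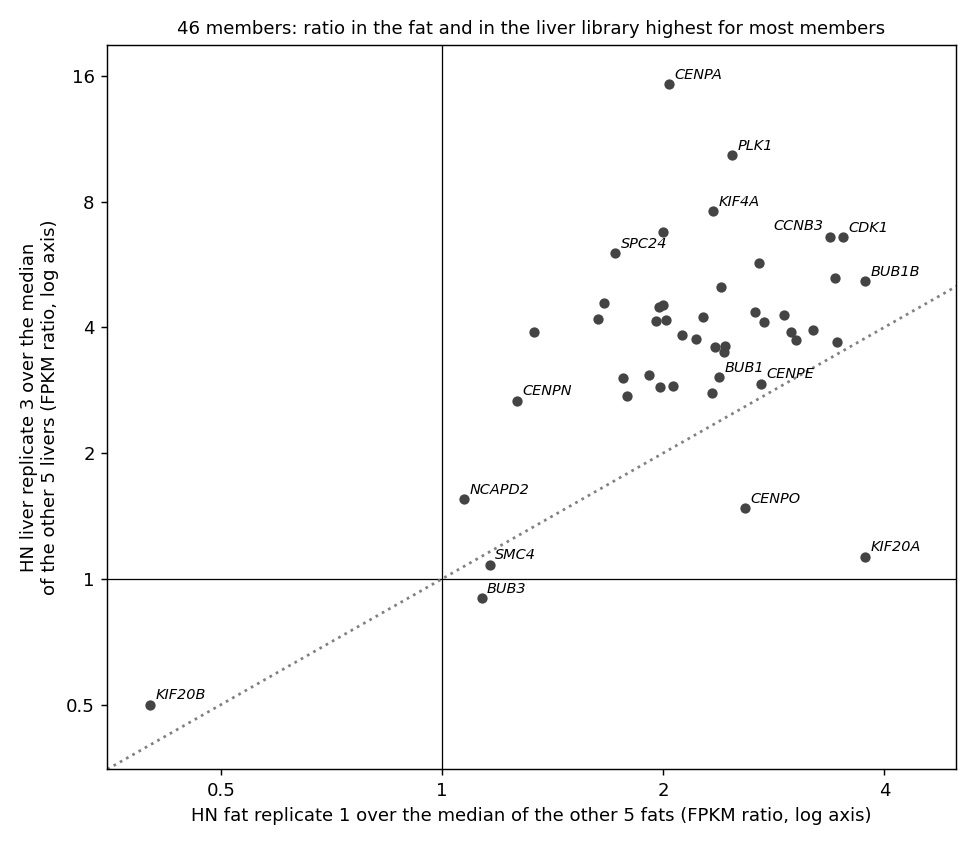
For each member, the FPKM in HN fat replicate 1 over the median of the other 5 fats (horizontal, log axis) and in HN liver replicate 3 over the median of the other 5 livers (vertical, log axis); the dotted line marks equal ratios. Most points lie above 2 on both axes with CENPA at 15.3 in liver, and BUB3, SMC4, NCAPD2 and KIF20B lie near or below 1.6.

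Markers of other cells were also read in the livers. The sum of 8 macrophage and Kupffer markers was 98.4, 1072 and 1034 FPKM in the HN livers and 79.5, 984.8 and 194.1 FPKM in the NN livers. It was high in HN replicates 2 and 3 and in NN replicate 2. In HN liver replicate 3 their ratio to the median of the other 5 livers had a median of 5.43, against 3.90 for the members. That ratio was at least 2 in 7 of the 8 markers, and 3 of the 8 were highest in that liver. Erythroid markers summed to 965.9, 192.9 and 676.1 FPKM in HN livers and 459.3, 146.2 and 359.5 FPKM in NN livers. This sum was highest in HN replicate 1. The median over the 8 erythroid markers was highest in HN replicate 3, at 22.8 FPKM against 11.2 FPKM in HN replicate 1. T cell markers summed to 24.0, 66.9 and 78.6 FPKM in HN livers and 49.6, 57.2 and 113.1 FPKM in NN livers. The part of these cells in the members' levels was not tested.

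The difference between diets was not shown to differ between the tissues. The interaction was fitted in 12544 genes over the 12 libraries, of which 32 were members, and 0 members and 0% of all genes were called (limma with Benjamini-Hochberg adjustment, smallest adjusted p of a member 0.858). At an unadjusted p under 0.05 there were 2 members, KIF20A and ANLN, both positive, where 313 of the 12544 genes were positive at that level. KIF20A had an interaction of 1.26 ± 0.36 on the log2 scale (SE, unadjusted p = 0.00520), with an HN mean above the NN mean in fat and below it in liver, and ANLN of 0.87 ± 0.38 (SE, unadjusted p = 0.0438). SFXN1, which KIF20A overlaps, also had the lower HN mean in liver, at 147.2 against 222.8 FPKM, and 10.4 against 10.8 FPKM in fat. Its part in the KIF20A interaction was not tested.

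Fat and liver were last compared within each diet. On HN, the log2 difference without the filter was positive in 40 of the 46 members, against 71.5% of all genes. Of 35 tested members, 11 were higher in fat and 0 lower at an adjusted p under 0.05 (limma, Benjamini-Hochberg), against 50.7% of all tested genes higher and 14.8% lower. The whole distribution was shifted towards fat, with a median log2 difference of 0.65 over the members and 0.64 over all tested genes. Under median-ratio scaling, which removes that shift, 4 members were higher on HN. The HN count was 7 with the replicate block, 28 without HN liver replicate 3, 3 without HN fat replicate 1, 6 without HN fat replicate 2, and 5 without either HN liver replicate 1 or HN liver replicate 2. On NN, it was positive in 43 members, against 72.2% of all genes. Of 22 tested, 11 were higher in fat and 1 lower, against 59.4% and 16.6% of all tested genes, with a median log2 difference of 0.51 over the members and 0.65 over all genes. Under median-ratio scaling 3 were higher and 1 lower on NN, and 10 of 22 had a positive difference. The shares of all tested genes called under these alternatives are not set beside the counts. The counts are therefore not read as particular to the members.

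SMC4 was higher in fat under every scaling tried. It averaged 7.37 ± 1.56 FPKM in HN fat and 1.22 ± 0.47 FPKM in HN liver (SD, n = 3 each), and 8.89 ± 2.01 FPKM in NN fat and 1.93 ± 0.38 FPKM in NN liver (SD, n = 3 each). The log2 difference of fat over liver was 1.92 ± 0.23 on HN (SE, limma, adjusted p = 0.000325) and 1.74 ± 0.19 on NN (SE, limma, adjusted p = 0.000100). TRIM59, which SMC4 overlaps, also had higher means in fat, at 13.4 FPKM against 4.52 FPKM in liver on HN. On NN they were 14.9 and 5.06 FPKM. The part of TRIM59 in the SMC4 values was not tested. KIF20A was the member that was lower in fat on NN, at 1.25 ± 0.32 FPKM against 4.62 ± 0.44 FPKM in liver (SD, n = 3 each), with a log2 difference of -1.33 ± 0.16 (SE, limma, adjusted p = 0.000162), and the SFXN1 values given above stand beside it. On HN its means in fat and liver were 3.93 ± 1.89 and 3.95 ± 0.74 FPKM (SD, n = 3 each). BUB3 was higher in fat as deposited, at 36.2 ± 3.07 against 18.2 ± 1.74 FPKM on HN and 34.7 ± 5.11 against 20.8 ± 1.33 FPKM on NN (SD, n = 3 each), but the log2 difference on NN, 0.70, was -0.022 under median-ratio scaling.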

How the data were processed

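RNA-seq of abdominal fat and liver of HN and NN chickens was analysed, 3 libraries per group and 12 in all, with groups and replicate numbers taken from the sample titles. The authors sequenced on the BGISEQ-500 and deposited FPKM per gene and library, already divided by transcript length and library size. The submitters' processing notes name HISAT2 2.0.4, Bowtie2 2.2.5 and RSEM 1.2.12. The genome build is not given in the sources used here, so no coordinates or sequences are shown. Read totals per library are unknown.

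FPKM were tested on log2(FPKM + 1), which understates changes of low genes, with limma 3.58.1 in R 4.3.3 (lmFit, eBayes with trend, two-sided, Benjamini-Hochberg over all tested genes), for genes averaging 1 FPKM or more in the libraries fitted. Both groups of a fit entered that mean, so a member low in NN birds could pass through the HN birds alone. Members were read from the full fits. Fits were tested on simulated data. Counts over all genes without a test used every gene above 0 in the tissue. Tables and figures were made with Python 3.11.15, numpy 2.4.6, pandas 2.3.3 and matplotlib 3.10.9.

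The members and marker lists were chosen with earlier results of these data known. Members were named by rule: the 2 highest of each role, the 10 of largest fold change per tissue with an unadjusted p under 0.05 or without overlap, and those not highest in the library where most members were. CDC20 and other members outside the rule were named after their values were seen. Nothing says that the same birds gave both tissues. Deviations of same-numbered fat and liver libraries correlated at 0.121 to 0.398 in every pair, so the numbers were taken to pair them. This pairing is uncertain, since HN fat replicate 1 and HN liver replicate 3 correlated at 0.192, above the 0.121 of the HN replicate 3 pair. The blocked value is given where it moved a count. Standard errors and p-values of fat against liver and of the interaction are from fits without the block. Between HN and NN, which are different birds, the numbers were not taken to pair the samples. Their same-numbered libraries of a tissue correlated at -0.0404 to 0.399, so correlations of this size also occurred between different birds. A shared effect of the replicate number was not tested. Alternatives were a pseudocount of 0.1, no filter, median-ratio scaling, quantile normalization, the replicate block, a joint fit of all libraries and each library left out.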

Additional observations from a re-analysis of the deposited data

How the results depend on the processing

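For HN against NN in fat, in liver and for the interaction, 0 members were called under every alternative run, so these counts say nothing of stability. The members' median log2 fold change was 0.41 to 0.75 in fat with each library left out, and -0.12 to 0.83 in liver, where only leaving out HN liver replicate 3 turned its sign. The set of members that passed the filter differed between these fits. The counts of members that differed between fat and liver moved with the scaling. On HN, 11 were called, 4 under median-ratio scaling, 7 under quantile normalization and 7 with the replicate block, and 3 to 28 with each library left out, the highest count without HN liver replicate 3. On NN, 12 members were called, 19 without the filter, 4 under median-ratio scaling and 4 under quantile normalization, and 8 to 13 with each library left out. No share of all tested genes stands beside these counts, so they do not describe the members alone. BUB3 in fat over liver on NN was -0.022 under median-ratio scaling, against 0.70. With the replicate block, 10 of 35 members in fat were higher at an unadjusted p under 0.05, against 2.61% of all tested genes, and the block changed no other call. The correlation of same-numbered HN and NN libraries was 0.399, 0.0916 and -0.0404 in liver and 0.219, 0.0406 and 0.229 in fat. Members near 1 FPKM rest on few reads, so single values at that level are uncertain beyond the spread between birds.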

Other observations

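Genes of the cell cycle outside the 46 members gave a mixed picture. In fat, of 24 replication genes 23 were tested and 16 had a positive fold change of HN over NN, against 37.3% of all tested genes. Of these, 8 had an unadjusted p under 0.05, against 2.39% of all tested genes, and 0 were called after adjustment (limma, Benjamini-Hochberg). TK1, thymidine kinase, had 8.93, 7.03 and 3.58 FPKM in HN fats and 1.64, 1.70 and 1.60 FPKM in NN fats, without overlap. RRM2, the small subunit of ribonucleotide reductase, had 9.11, 8.16 and 3.41 FPKM in HN fats and 0.99, 1.35 and 2.75 FPKM in NN fats, also without overlap. PCNA, the sliding clamp, had 53.3, 49.0 and 38.2 FPKM in HN fats and 40.6, 46.8 and 43.5 FPKM in NN fats, with HN fat replicate 3 below every NN fat. MCM5, a subunit of the replicative helicase, had 8.28, 5.76 and 4.69 FPKM in HN fats and 2.90, 4.03 and 4.16 FPKM in NN fats. HN fat replicate 1 was the highest of the 6 fats in 14 of the 24 replication genes, against 17.0% of all genes.

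Of 60 other mitotic genes, 47 were tested in fat and 29 had a positive fold change, against 37.3% of all tested genes. At an unadjusted p under 0.05 (limma), 9 were higher in HN, against 2.39% of all tested genes, and 1 was lower, against 284 of 12394. In liver 18 of 35 tested were positive (42.2% of all tested genes), with a median log2 fold change of 0.0018. There 1 was higher at an unadjusted p under 0.05 (3.42% of all tested genes) and 3 were lower (963 of 11278). UBE2C, the ubiquitin-conjugating enzyme of the anaphase-promoting complex, had 15.8, 13.1 and 4.74 FPKM in HN fats and 3.80, 3.96 and 3.91 FPKM in NN fats. In liver it had 2.58, 8.77 and 43.6 FPKM in HN birds and 3.37, 2.12 and 6.23 FPKM in NN birds, again highest in HN replicate 3. SGOL2, a shugoshin that protects centromeric cohesion, went the other way in fat, at 1.08, 0.57 and 0.71 FPKM in HN fats and 2.06, 2.77 and 1.45 FPKM in NN fats, without overlap. FOXM1, a transcription factor of mitotic genes, had 2.84, 2.27 and 1.16 FPKM in HN fats and 0.52, 0.80 and 0.72 FPKM in NN fats, and in liver 0.31, 0.28 and 2.29 FPKM in HN birds and 0.70, 0.31 and 0.99 FPKM in NN birds. The list of 20 regulators of mitotic transcription it belongs to did not share this. In fat 9 of 19 tested were positive (37.3% of all tested genes), with a median log2 fold change of -0.02. FOXM1 alone had an unadjusted p under 0.05 (limma). In liver 4 of 14 were positive (42.2% of all tested genes), with a median of -0.16. HN liver replicate 3 was picked because most members were highest there, which favours a high ratio of the members. Its median ratio to the other 5 livers was 1.55 for replication genes and 2.37 for the other mitotic genes. It was 3.90 for the members and 1.02 for all genes.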
